A study of Danio rerio with 8 samples.

Results

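The genes described are 8 that store, release and move fat: the lipases pnpla2, lpla and lipca, the lipid droplet genes plin2 and cidea, the fatty acid binding protein fabp11a, and the transcription factors pparg and cebpa. They were chosen by symbol, with earlier results of these data known. Each was read from the array probe whose RefSeq accession belongs to it. All 8 have 1 probe, and all 8 passed the filter on dim probes, out of 17264 named genes that did. The current RefSeq table calls fabp11a by the symbol fabp4a and gives the older name as a synonym.

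RNA came from whole bodies of zebrafish larvae 5 weeks after fertilisation. The 4 mutant pools were pex2-/- fish carrying the allele named typeC, a model of the peroxisome disorder Zellweger syndrome, and the 4 control pools were their pex2+/+ siblings. Each pool mixed equal amounts of RNA from 3 larvae and was hybridised to its own one-colour array. No label gives the sex of the larvae or says that pools came from separate clutches, and the p-values therefore speak only for the spread among these pools.

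Fat is kept as triglyceride inside lipid droplets, whose surface carries coat proteins of the perilipin family. In a fasting animal the lipase Pnpla2 cuts the first fatty acid from triglyceride, hormone-sensitive lipase the next and monoglyceride lipase the last. Lipoprotein lipase and hepatic lipase work outside the cell, on the triglyceride and phospholipid of circulating lipoproteins. Pparg and Cebpa are, in mammals, the pair of factors that drive fat cell differentiation, and Cebpa also acts in liver and in myeloid blood cells.

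In the mutant pools all 3 lipases were higher, by 2.20-fold to 4.09-fold, and 3 of the other 5 genes were lower: cebpa by a fitted 2.98-fold, fabp11a by 1.55-fold and cidea by 1.48-fold. The cebpa probe was well above background on 2 of 4 mutant arrays. The calls of cebpa (-0.30, adjusted p = 0.0613, limma) and cidea (-0.08, adjusted p = 0.384) were lost with normexp background correction, a model of spot background. A constant was then added to every corrected intensity. That constant was 50, against mean mutant intensities without normexp of 16.4 for cebpa and 49.1 for cidea. Normexp also changed the background estimate and the spot measure, and the part of the constant in the lost calls was not tested. The probe assigned to pparg was 1.35-fold higher, which depended on the scaling, and plin2 did not pass. That makes 4 higher, 3 lower and 1 that did not pass an adjusted p of 0.05, where 57.6% of all named genes passed, 29.9% higher and 27.8% lower. Genotypes did not overlap in 6 of the 8, against 54.6% of all named genes. The median difference of the 8 was -0.07 on the log2 scale and that of all named genes 0.01. With so large a background the count of 8 is not a result about these genes. The counts in gene lists and cell type markers below stand against the same shares and were not tested against them. In the pathway lists the share called ran from 39.1% for fat cell hormones and receptors to 75% for lipolysis inside the cell. Levels below are log2 intensity relative to the 75th percentile of the array, which is set to 0, and differences are mutant minus sibling with the moderated standard error of limma, 4 pools per genotype. Because each sample is a whole body, fewer cells of a type and less RNA per cell cannot be told apart.

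Some facts of the arrays touch these values. Sibling arrays had a 75th percentile of intensity of 698 ± 106.97 and mutant arrays one of 476 ± 24.7 (SD, n = 4 each), a log2 difference of -0.54 that scaling removes. No spot was saturated. The transcript of pex2 itself was not used to check the genotypes, since the RefSeq accession of that gene is carried by none of the named probes. The share of probes well above background was lowest on mutant replicate 4, at 67.3%, and 72.7% to 76.3% on the other 7 arrays.

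**Figure D1:**
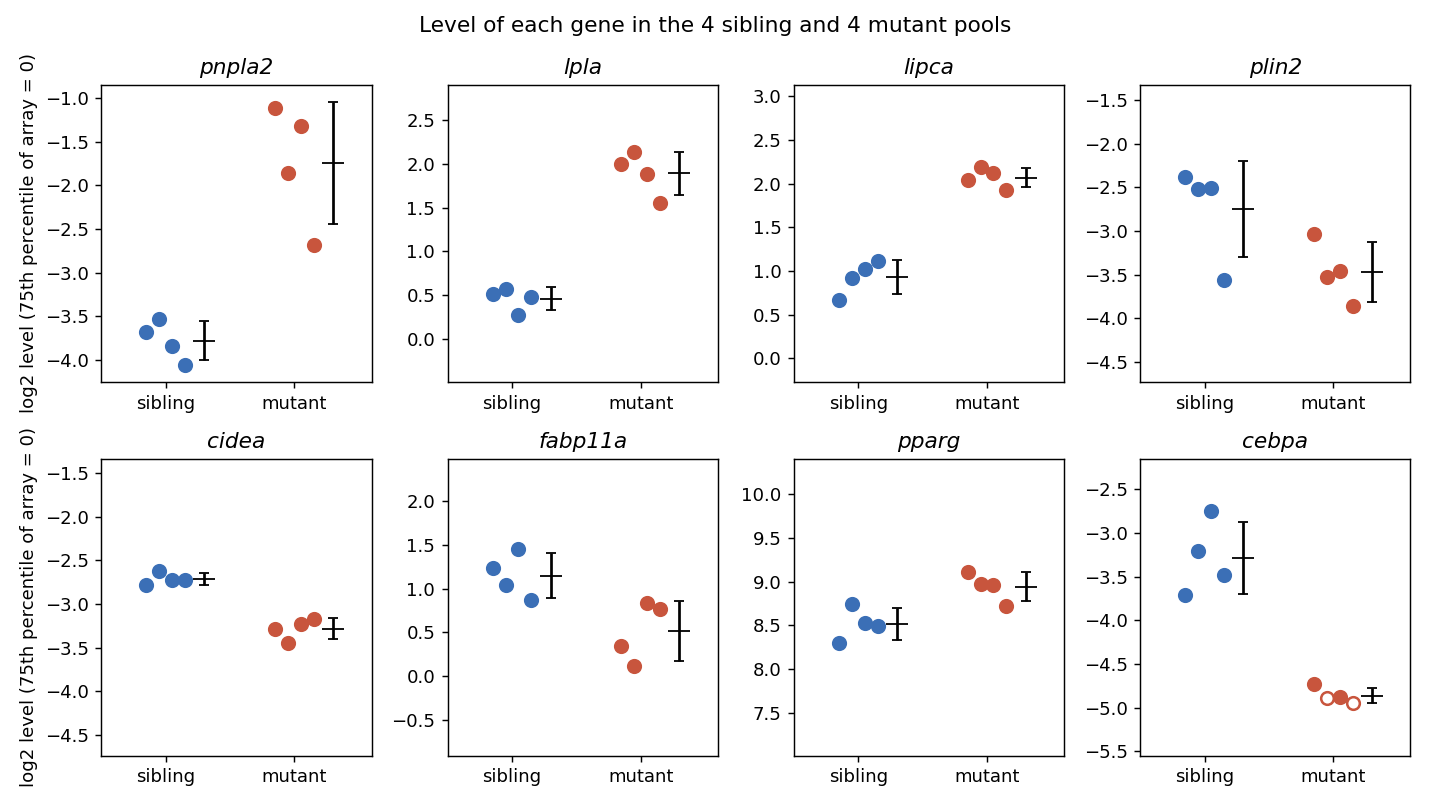
Level of each of the 8 genes in every pool, as log2 intensity with the 75th percentile of the array at 0; all panels span the same number of log2 units, and bars show the mean and SD of 4 pools. Filled points are well above background, and open points, which occur for cebpa in mutant replicates 2 and 4, are not; the genotypes overlap for plin2 and pparg.

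The lipases are taken first. The triglyceride lipase pnpla2 stood at -3.68, -3.53, -3.84 and -4.06 in sibling replicates 1 to 4. In mutant replicates 1 to 4 it stood at -1.12, -1.86, -1.32 and -2.69. Every mutant pool lay above every sibling pool, and mutant replicate 4 was the lowest of the mutants. The difference was 2.03 ± 0.32 (95% confidence interval 1.29 to 2.77, adjusted p = 0.00105, limma), larger in size than that of 95.7% of named genes. The SD between pools was 0.70 in mutants and 0.22 in siblings, while the 2 spots of the probe on 1 array differed by an SD between 0.01 and 0.26. The slide had 2 rows, each with 2 arrays of each genotype, and the pnpla2 difference was 2.58 within row 1 and 1.49 within row 2.

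Lipoprotein lipase, lpla, frees fatty acids from circulating triglyceride for uptake by tissues such as muscle and fat. Its levels were 0.52, 0.56, 0.27 and 0.48 in the sibling replicates and 2.0, 2.14, 1.88 and 1.55 in the mutant replicates. The lowest mutant pool was again replicate 4, and it still lay well above the highest sibling pool. The difference was 1.44 ± 0.14 (95% confidence interval 1.12 to 1.76, adjusted p = 0.000132, limma).

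Hepatic lipase, lipca, acts on lipoprotein remnants and high-density lipoprotein in the liver's vessels. Its levels were 0.67, 0.92, 1.02 and 1.12 in the sibling replicates and 2.04, 2.19, 2.12 and 1.93 in the mutant replicates. The mutant pools lay close together, and none overlapped with the siblings. The difference was 1.14 ± 0.12 (95% confidence interval 0.87 to 1.41, adjusted p = 0.000167, limma). All 3 lipases were also brighter before any scaling between arrays: mean intensity was 153 ± 62.4 against 51.6 ± 11.9 for pnpla2, 1777 ± 225 against 960 ± 162 for lpla and 1995 ± 135 against 1324 ± 120 for lipca (SD, mutants then siblings, n = 4 each). The unscaled difference of each gave an exact two-sided permutation p of 0.0286, the smallest that 4 pools against 4 can give.

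The other enzymes of lipolysis inside the cell went both ways. Of 12 tested genes in that list, pnpla2 included, 6 were higher, 3 lower and 3 did not pass, with a median difference of 0.26. Monoglyceride lipase mgll rose by 0.87 ± 0.13, and its sibling pools lay between -1.18 and -1.07. Its mutant pools were at -0.13, -0.11, -0.16 and -0.66. The hormone-sensitive lipase lipeb rose by 0.62 ± 0.12, without overlap of genotypes. Its relative lipea rose by 0.30 ± 0.10 (adjusted p = 0.0312, limma), with overlap. The monoglyceride hydrolase abhd6a rose by 0.43 ± 0.10, without overlap. The related abhd6b fell by 1.84 on the log2 scale (± 0.31), the carboxylesterase ces2b by 1.34 (± 0.15) and pnpla3, a lipase of lipid droplets, by 0.63 (± 0.17). The call of pnpla3 was lost with normexp (-0.29, adjusted p = 0.109), and the value of abhd6b was then -0.93. The inhibitor of Pnpla2, g0s2, differed by 0.21 ± 0.35 (adjusted p = 0.618), and abhd5b, of the family that activates it in mammals, by 0.06 ± 0.09 (adjusted p = 0.610).

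Around the secreted lipases, 4 of 9 tested genes were higher and 2 lower, with a median of 0.29. Beside lpla and lipca these included apoc1, an apolipoprotein that restrains lipases in mammals. Its difference was 1.26 ± 0.29, well above background on 3 mutant arrays and 1 sibling array, and 0.64 with normexp. Endothelial lipase lipg fell by 1.32 on the log2 scale (± 0.34) and lmf2b, of the lipase maturation factor family, by 0.67 (± 0.12). The genotypes overlapped for lipg, whose call was lost at a threshold of 0.01 (adjusted p = 0.0103, limma), but not for lmf2b. The activator apoc2 differed by -0.13 ± 0.18 (adjusted p = 0.554) and the inhibitor angptl4, which fasting induces in mammals, by 0.29 ± 0.14 (adjusted p = 0.110).

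Droplet genes come next. Perilipin plin2 coats droplets in most cell types. Its levels were -2.38, -2.52, -2.50 and -3.56 in the sibling replicates. In the mutant replicates they were -3.03, -3.53, -3.45 and -3.86. The other 3 sibling pools lay above all mutants, while sibling replicate 4 lay within the mutant range. The difference was -0.73 ± 0.29 (95% confidence interval -1.38 to -0.07, adjusted p = 0.0562, limma), and it did not pass. Without sibling replicate 4 it was -1.0 (adjusted p = 0.00476), and without mutant replicate 1 -0.87 (adjusted p = 0.0395). With any other single pool left out it did not pass (adjusted p between 0.0979 and 0.135, limma). A fit that weighted the arrays gave -0.54 (adjusted p = 0.170). The difference passed with quantile scaling (-0.76, adjusted p = 0.0353) and among probes well above background on all 8 arrays (adjusted p = 0.0456). With normexp it was -0.18 (adjusted p = 0.306). Within row 1 of the slide, which held sibling replicate 4 and mutant replicate 1, it was -0.20, and within row 2 -1.25.

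The droplet protein cidea, of a family that fuses droplets or moves lipid between them in mammals, had levels of -2.78, -2.63, -2.72 and -2.73 in the sibling replicates. In the mutant replicates they were -3.28, -3.45, -3.23 and -3.17. Both groups were tight, with SDs of 0.07 and 0.12, and did not overlap. The difference was -0.57 ± 0.09 (95% confidence interval -0.78 to -0.36, adjusted p = 0.00114, limma). The probe was dim, with mean intensities of 49.1 ± 6.15 in mutants and 106 ± 12.7 in siblings (SD, n = 4 each), and with normexp the difference was -0.08 (adjusted p = 0.384).

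Of 13 tested droplet genes 2 were higher, 4 lower and 7 did not pass, with a median of -0.11. The nearest relatives of cidea split: cideb fell by 0.54 on the log2 scale (± 0.15), and by 0.33 with normexp, while cidec rose by 0.50 ± 0.14. The perilipin plin6, described in zebrafish on the droplets of pigment cells, fell by 1.05 (± 0.18), and by 0.41 with normexp. The spartin gene sparta fell by 1.09 (± 0.14). The seipin gene bscl2, which shapes the sites where droplets form, had a difference of 1.01 ± 0.33, with 3 mutant and 3 sibling arrays well above background. Mutant replicate 4, at -2.99 and not well above background, was far above the other mutants at -4.47 to -4.35. Without it the difference was 0.66 (adjusted p = 0.00632), with normexp it was 0.67, and the call was lost without sibling replicate 1 or 2 (adjusted p = 0.0714 and 0.0567) and with quantile scaling (adjusted p = 0.0648). The perilipin plin1, the coat of mammalian fat cell droplets, was well above background on 0 of 4 sibling and 0 of 4 mutant arrays.

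**Figure D2:**
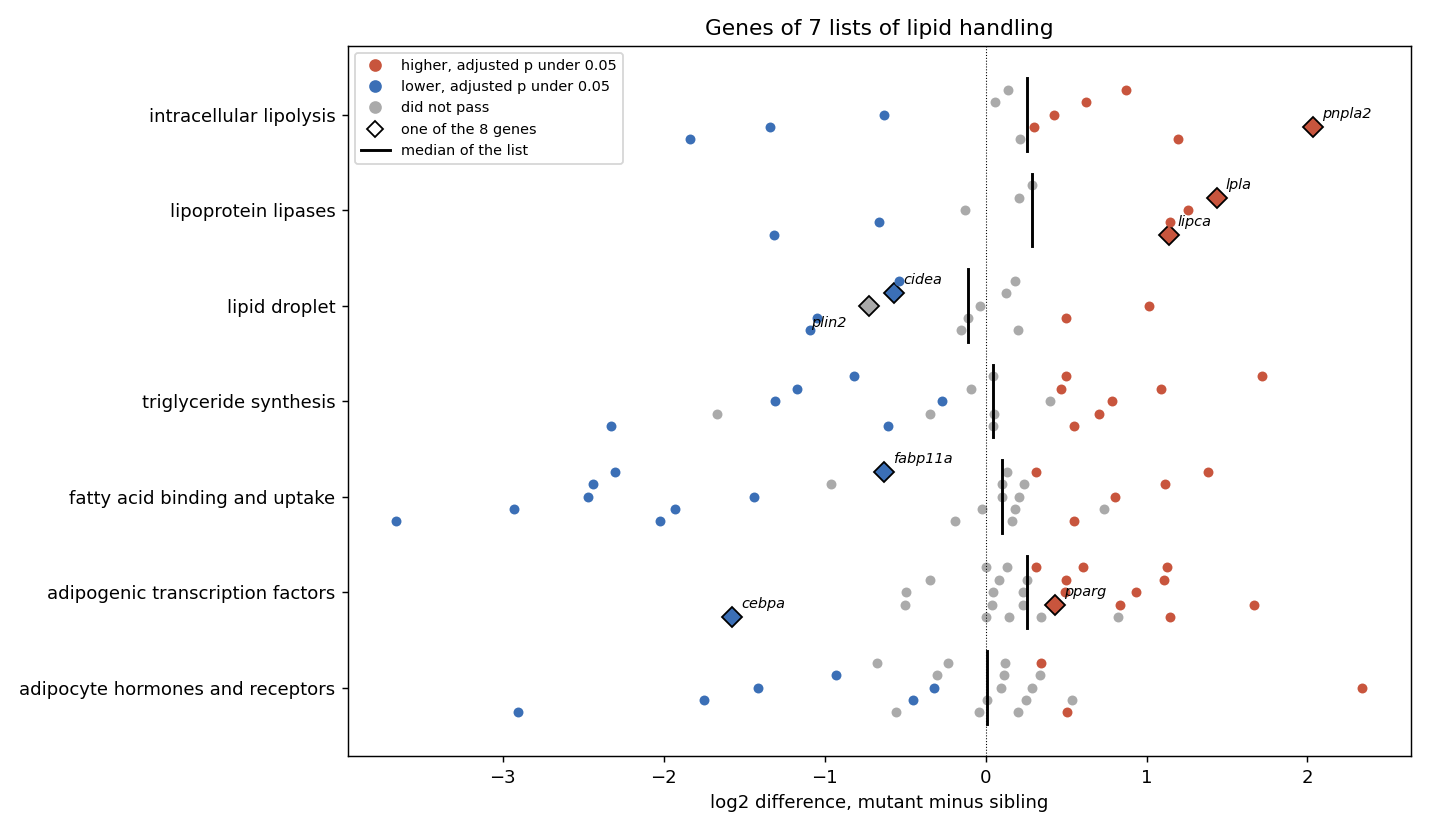
Log2 difference, mutant minus sibling, of every tested gene in 7 lists of lipid handling, 1 row a list, with points spread vertically only for legibility. Diamonds are the 8 genes, colours mark genes that passed an adjusted p of 0.05, and the black line is the list's median, which lay between -0.11 for droplet genes and 0.29 for lipoprotein lipases.

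Fatty acids move inside cells on small binding proteins. The adipocyte and endothelial type of these, fabp11a, had levels of 1.24, 1.04, 1.46 and 0.87 in the sibling replicates and 0.34, 0.12, 0.83 and 0.77 in the mutant replicates. The genotypes did not overlap, but mutant replicate 3 came close to sibling replicate 4. The difference was -0.63 ± 0.20 (95% confidence interval -1.08 to -0.18, adjusted p = 0.0230, limma). The call was lost without sibling replicate 1 or 3 (adjusted p = 0.0560 and 0.0593) and without mutant replicate 1 or 2 (adjusted p = 0.0580 and 0.0508). The difference was -0.37 within row 1 of the slide and -0.90 within row 2. Its nearest relative on the array, fabp4b, differed by -0.96 ± 0.41 and did not pass (adjusted p = 0.0760), although its genotypes did not overlap.

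Of 25 tested genes for fatty acid binding and uptake 5 were higher, 9 lower and 11 did not pass, with a median of 0.10. The scavenger receptor cd36, which takes up long-chain fatty acids, had sibling levels between 4.71 and 4.87 and mutant levels of 1.27, 2.23, 2.36 and 3.50. It fell by 2.47 on the log2 scale (± 0.40), and fabp1a, a binding protein of the liver and gut type, by 2.93 (± 0.54). The acyl-CoA synthetases, which activate fatty acids, split: acsl5 fell by 2.02 (± 0.36) and acsl4b by 1.44 (± 0.19), while acsl1b rose by 1.38 ± 0.13. The transporter slc27a1b rose by 1.12 ± 0.12. With normexp the values were -0.76 for acsl4b and 0.72 for slc27a1b. Markers of the gut lining moved with the falls in this list: 9 of 11 enterocyte markers were lower and 0 higher, where 27.8% of all named genes were lower. Their summed level (75th percentile = 1) lay between 334 and 488 in mutants and between 454 and 533 in siblings. That sum was carried by apoa1a, which differed by 0.02 ± 0.18 (adjusted p = 0.918). Without it the sum of the other 10 lay between 34.3 and 104.7 in mutants and between 190 and 211 in siblings. The gene fabp2 is in both lists, so they are not separate sets. It was the brightest of those 10 in siblings, with a mean log2 level of 6.48 there and 4.04 in mutants. The marker mep1a.2 was well above background on 0 mutant and 4 sibling arrays, so it passed the filter on dim probes through siblings alone. The part of the gut in the falls of this list was not tested.

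The transcription factors differed in direction. The bZIP factor cebpa had levels of -3.71, -3.21, -2.75 and -3.48 in the sibling replicates and -4.73, -4.89, -4.88 and -4.94 in the mutant replicates. Every mutant pool lay below every sibling pool, and the mutants were close together at the lower end of the measurable range. The difference was -1.58 ± 0.19 (95% confidence interval -2.02 to -1.13, adjusted p = 0.000335, limma). The array carries 10 spots of this probe. In siblings all 10 were well above background on each array, and in mutant replicates 1 to 4 it was 8, 5, 8 and 0 of them. Mean intensity was 16.4 ± 0.80 in mutants and 73.5 ± 23.6 in siblings (SD, n = 4 each), while the lowest intensity counted as well above background lay between 12.2 and 20.9 on the mutant arrays. Mutant replicates 2 and 4, where at most 5 of 10 spots cleared background, both lay in row 2 of the slide. Within row 1 the difference was -1.46 and within row 2 -1.69, with 2 pools per genotype in each. With normexp the difference was -0.30 and did not pass (adjusted p = 0.0613).

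The nuclear receptor pparg is the target of the thiazolidinedione drugs and the main regulator of mammalian fat cells. Its values come from 1 very bright probe, assigned to pparg by accession. Whether that probe reads pparg or another abundant RNA could not be checked without its sequence, and this applies to every pparg value given. The levels were 8.30, 8.75, 8.53 and 8.49 in the sibling replicates. In the mutant replicates they were 9.12, 8.98, 8.96 and 8.73. Mutant replicate 4 lay just below sibling replicate 2, so the genotypes overlapped. The difference was 0.43 ± 0.13 (95% confidence interval 0.14 to 0.72, adjusted p = 0.0189, limma), and the call was lost without mutant replicate 1 (adjusted p = 0.0509).

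This rise depended on the scaling. Before scaling the intensity was 234753 ± 18516 in mutants and 254406 ± 23358 in siblings (SD, n = 4 each), a log2 difference of -0.11 (exact two-sided permutation p = 0.2). With quantile scaling it was 0.20 and did not pass (adjusted p = 0.0702). In brightness of its spots the probe ranked 25 of 39749 on the array, which describes the spots and not an amount of RNA. Of the 100 brightest probes 32 were called higher and 3 lower, with a median difference of 0.20 after scaling and -0.34 before it. Among all named genes 29.9% were higher and 27.8% lower, with medians of 0.01 after scaling and -0.53 before it. Those 100 held 35.4% of all signal on the mutant arrays and 29.3% on the sibling arrays, on average. The part of spot brightness in the pparg difference was not tested.

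**Figure D3:**
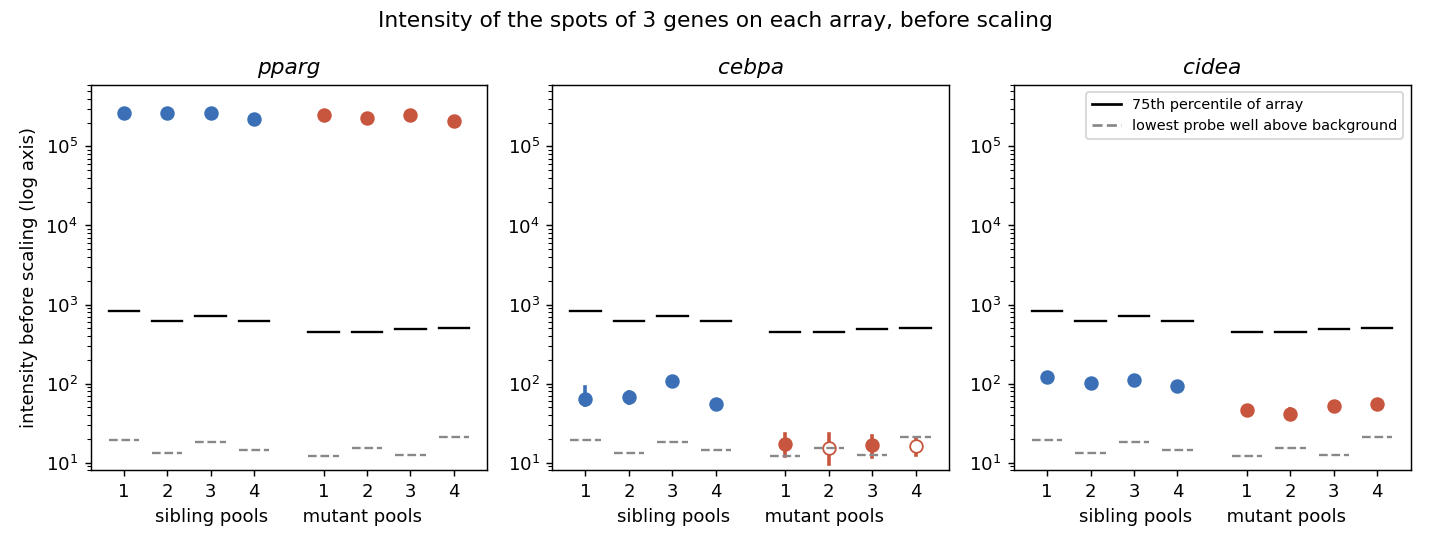
Intensity before scaling, on a log axis, of the spots of pparg, cebpa and cidea on each array: points are means, vertical lines span the lowest to highest spot, and open points are not well above background. Black ticks mark the 75th percentile of each array and dashed ticks the lowest probe well above background; cebpa falls to the dashed ticks in mutants, while pparg lies far above the 75th percentile at a like intensity in both genotypes.

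Of 27 tested factors of fat cell differentiation and their partners 11 were higher, 1 lower and 15 did not pass. Their median was 0.26, and cebpa was the 1 that was lower. The coactivator ppargc1a rose by 1.11 ± 0.11, the fatty acid receptor pparda by 0.84 ± 0.10 and the liver X receptor nr1h3 by 0.61 ± 0.10. The stress-induced factor ddit3, a C/EBP relative that in mammals blocks the binding of other members, rose by 1.14 ± 0.12. The early B-cell factors ebf3a and ebf1a, a family that acts in fat cells and neurons of mammals, rose by 1.12 ± 0.13 and 0.50 ± 0.10. Of the other C/EBP genes, cebpb differed by -0.49 ± 0.26 (adjusted p = 0.141), cebpd by -0.34 ± 0.34 (adjusted p = 0.406) and cebpg by 0.04 ± 0.09 (adjusted p = 0.742). Of 10 neuron markers 7 were called higher and 0 lower, where 29.9% of all named genes were higher. Their summed level lay between 143 and 212 in mutants and between 113 and 127 in siblings, and their part in the rises of this list was not tested.

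Triglyceride synthesis, the opposite arm to lipolysis, had 7 higher, 6 lower and 7 that did not pass of 20, with a median of 0.05. Among the 6 lower, mogat3b was well above background on 0 mutant and 4 sibling arrays, so it passed the filter through siblings alone. The phosphatidate phosphatase lpin1a, which is also a coactivator in fasting mammalian liver, rose by 1.72 ± 0.34 without overlap. The acyltransferases agpat3 and gpat4 rose by 0.50 ± 0.09 and 0.55 ± 0.11, while agpat5 fell by 0.61 (± 0.12). The intestinal enzyme mogat2 fell by 2.32 (± 0.43) and the glycerol phosphate dehydrogenase gpd1c by 1.17 (± 0.19). The enzymes of the last step went no single way: dgat1a fell by 0.82 (± 0.25, adjusted p = 0.0231), whereas dgat2 differed by 0.40 ± 0.24 (adjusted p = 0.183) and dgat1b by -0.09 ± 0.10 (adjusted p = 0.465). Those 3, like lipea, fabp4b, cebpb, cebpd, cebpg, g0s2, abhd5b, apoc2 and angptl4, were picked for their roles after their values were seen.

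Among hormones and receptors of fat cells 3 of 23 were higher, 6 lower and 14 did not pass, with a median of 0.01. Complement factor D, cfd, a protease secreted by mammalian fat cells, had sibling levels between 5.99 and 6.27 and mutant levels between 4.1 and 4.71. It fell by 1.75 on the log2 scale (± 0.15). Adiponectin adipoqb was between -2.43 and -1.95 in siblings and at -3.57, -6.92, -3.78 and -6.10 in mutant replicates 1 to 4. Replicates 2 and 4, both in row 2 of the slide, were not well above background. Its difference was -2.90 ± 0.72, and -0.86 with normexp. The adrenergic receptor adrb3b, of the type that triggers lipolysis in rodent fat, was between -5.31 and -4.19 in siblings and between -3.05 and -1.98 in mutants. It rose by 2.34 ± 0.29, and by 1.23 with normexp, with 2 sibling arrays well above background. Its relative adrb3a, picked after its values were seen, had a far brighter probe, with a mean level of 5.38 in mutants and 5.26 in siblings. That gene differed by 0.12 ± 0.23 and did not pass (adjusted p = 0.666, limma). The channel aqp3a, which carries water and glycerol, fell by 1.41 (± 0.19), the caveola gene cavin2b by 0.93 (± 0.15) and the adiponectin receptor adipor1b by 0.45 (± 0.11).

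**Figure D4:**
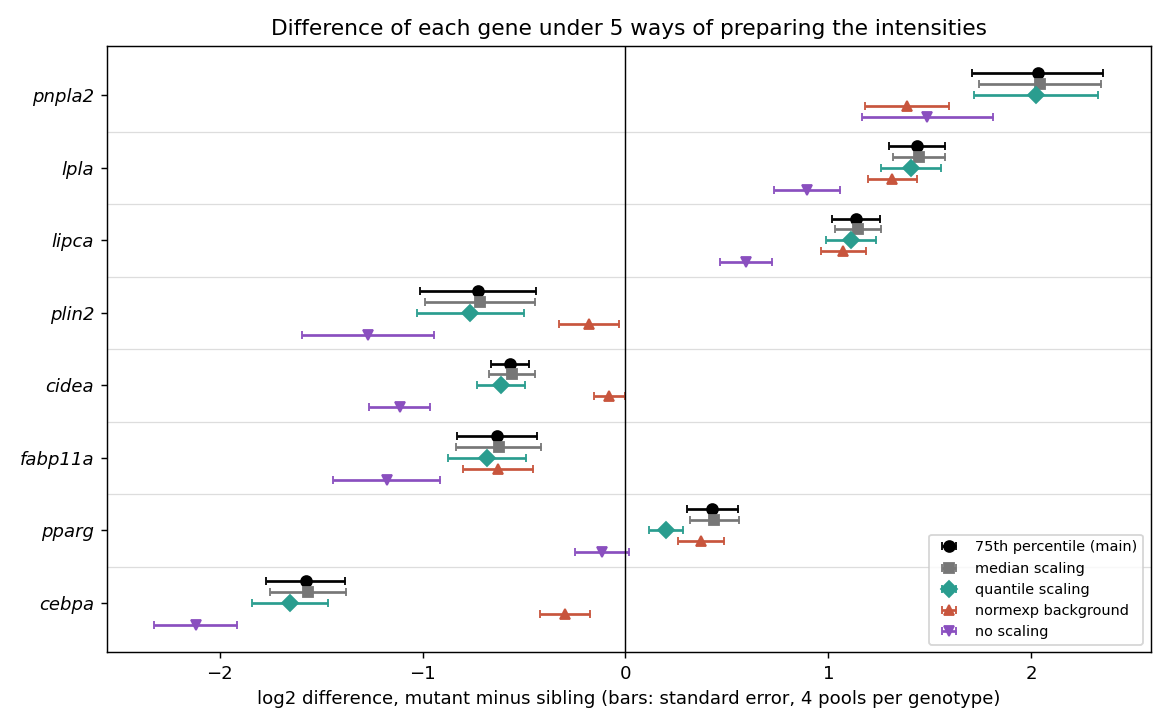
Log2 difference, mutant minus sibling, of each of the 8 genes under 5 ways of preparing the intensities, with standard errors (4 pools per genotype). The lipases stay to the right of 0 and fabp11a to the left in all 5; cidea, plin2 and cebpa move towards 0 with normexp, and pparg lies at -0.11 with no scaling.

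Cell type markers give a setting for these values, where 29.9% of all named genes were called higher and 27.8% lower. Of 4 tested fat cell markers cfd and adipoqb were lower, cidec was higher and lepa did not pass, while plin1 and lepb were well above background on 0 arrays. All 4 were already counted above, cidec among droplet genes and the others among hormones and receptors, so they are not a separate set. The summed level of these 4 lay between 65.0 and 78.6 in siblings and between 18.7 and 27.8 in mutants. Without cfd the sum lay between 1.23 and 1.58 in siblings and between 1.5 and 1.96 in mutants. That remainder was carried by cidec, with a mean log2 level of 0.17 in siblings and 0.67 in mutants. The mean of adipoqb was -2.19 in siblings and -5.09 in mutants, so its fall hardly enters the sum. Of 11 hepatocyte markers 6 were higher, 0 lower and 5 did not pass. Their summed level lay between 1293 and 1522 in mutants and between 959 and 1199 in siblings, and the called markers moved with lipca. Among those that did not pass, ahsg2 differed by -1.50 ± 0.57 without overlap of genotypes (adjusted p = 0.05004, limma). The brightest of the 11 was apoa2, with a mean log2 level of 8.48 in siblings and 8.99 in mutants. Of 10 macrophage markers 1 was higher and 6 lower, with sums between 4.57 and 6.18 in mutants and between 6.65 and 9.11 in siblings. The called ones mostly moved with cebpa, while the called hepatocyte markers, of another cell type in which Cebpa acts, moved the opposite way. The brightest macrophage marker was lcp1, with a mean log2 level of 1.92 in siblings and 0.84 in mutants. The receptor csf1ra differed by 0.20 ± 0.20 (adjusted p = 0.406, limma). Its relative csf1rb, left out by the filter, was well above background on 3 mutant and 0 sibling arrays. The kidney tubule and endothelium markers, 6 tested, had 1 higher and 4 lower. Their sums lay between 2.32 and 3.55 in mutants and between 3.93 and 4.56 in siblings. Among the endothelial ones vwf, fli1 and pecam1a differed by -1.77, -0.60 and -0.60, the direction of fabp11a, while cdh5 differed by 0.43. Of 12 muscle markers, a tissue in which lpla is active in mammals, 1 was higher and 1 lower. Their sums lay between 2003 and 2670 in siblings and were 2970, 3066, 3015 and 1580 in mutant replicates 1 to 4. The first 3 mutant pools lay above every sibling, and replicate 4 below every sibling. Replicate 4 was also the lowest mutant for pnpla2, lpla, lipca, plin2, cebpa and the pparg probe, but not for cidea and fabp11a. The part of the cell types in the differences of the 8 genes was not tested.

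Within genotypes the 8 genes did not vary as one. After each genotype's mean was taken off, the correlation over the 8 arrays was 0.67 between pnpla2 and plin2, 0.63 between pnpla2 and lpla, 0.06 between pnpla2 and lipca, and -0.77 between lpla and fabp11a. These are descriptions over pools that share a slide and a scaling factor. By the same measure, among 13254 genes well above background on all arrays, with no missing value and a name other than a clone or locus identifier, the genes most like pnpla2 were cdc37l1 (r = 0.99), stab2 (0.97) and msh3 (0.96). Those most like lpla were unc119a1 (0.99), sesn4 (0.99) and svopl (0.98). For lipca they were dld (0.98), serpina10a (0.97) and cox6b2 (0.97), and for plin2 npepl1, uck1 and arhgef11 (each 0.94). For cidea they were mep1bb (0.97), cadm3 (0.96) and mrps27 (0.96), and for fabp11a pdss2, tmem258 and hspa9 (each 0.98). For cebpa they were bnip1b, etnk2 and ppfia4 (each 0.95). For pparg they were apoa1b (1.00), pmepa1 (0.99) and sowahca (0.98). With so many candidates and 8 arrays, values near 1 occur without any relation.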

How the data were processed

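Each of the 8 arrays gave 1 scanner table of spots. Its intensity values had been background-corrected by the authors' scanner software, Agilent Feature Extraction (10.7.3.1, protocol GE1_107_Sep09), as recorded per the file headers. A deposited value table is on the log2 scale. It matched the scanner intensity scaled to the 75th percentile and centred on each probe's median, with 99.8% to 99.9% of values per array within 0.01, so its scale, centring and direction are known. Its column medians were -0.09, -0.08, -0.01 and -0.09 for siblings 1 to 4 and 0.05, 0.17, 0.03 and 0.09 for mutants.

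Of 61657 spots that were not controls, 1099 readings over all arrays were outliers and were dropped. Remaining spots were averaged per probe as log2 intensity, and the 75th percentile of each array was subtracted. Of 39749 probes, 29937 were well above background, by a majority of spots, on at least 4 arrays. Accessions were matched without versions to the RefSeq table of GRCz12tu, which named 61.8% of probes. The array grid uses danRer7, another build, and coordinates are therefore not printed. A gene was read from its brightest probe.

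The fit was made with limma 3.58.1 under R 4.3.3 (lmFit and eBayes, two-sided, Benjamini-Hochberg adjustment over the 29937 probes kept) and was tested on simulated data. Deviations of same-numbered pools had correlations of 0.18, 0.10, -0.02 and -0.02, and no pairing was used. The 2 pools of each number lay in different rows of the slide, so these correlations cannot exclude a pairing. All arrays lay on 1 slide, 2 arrays of each genotype in each of its 2 rows. The number of arrays limits the precision. Alternatives changed the scaling, background correction, filter, fit, threshold and pools. The planned normexp correction used spot medians in place of spot means. The 8 genes and the lists were chosen with earlier results of these data known. The genes named from a list are the up to 6 of smallest adjusted p that passed, except 1 that is not reported here. For each of the 8 genes, 3 genes alike in their deviations from the genotype mean were also named.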

Additional observations from a re-analysis of the deposited data

Results flagged for a closer look

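Each group of 4 pools was searched for a pool far from the others, in 94 groups of 47 genes, where about 1 in 20 such groups stands out without cause, and 4 did. Among the 8 genes it was plin2, at -3.56 in sibling replicate 4 against -2.52 to -2.38 in the other siblings. The other 3 were all mutant replicate 4: bscl2 was high at -2.99 against -4.47 to -4.35, agpat5 was high at 0.18 against -0.25 to -0.22, and mgll was low at -0.66 against -0.16 to -0.11. On that array 67.3% of probes were well above background, the lowest share of the 8, and its part in these values was not tested.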

How the results depend on the processing

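The differences of pnpla2, lpla and lipca passed in all 22 other settings, between 1.39 and 2.35, 0.89 and 1.55, and 0.59 and 1.2. No scaling between arrays, a setting added after seeing the data, turned pparg to -0.11 and gave 1151 genes higher and 8823 lower, against 5156 and 4795, since it leaves in the -0.54 between the arrays' 75th percentiles. It moved the median of all genes from 0.01 to -0.53, and 11.5% of its calls were higher against 51.8%. With normexp 60.0% were higher, and 1 of the 8 genes was called lower in place of 3, with cidea at -0.08 and cebpa at -0.30. A threshold of 0.01 ended the calls of fabp11a and pparg and left 3189 genes lower, with 3 calls in the droplet list (6 before), 8 in triglyceride synthesis (13) and 9 in fatty acid binding (14). With each pool left out, the 8 genes held 3 to 4 higher and 2 to 4 lower, and all named genes 4578 to 5292 higher and 4137 to 5016 lower. With the replicate number as a block, plin2 passed (-0.73, adjusted p = 0.0121), and 4894 genes were higher and 4530 lower. With the slide row as a block each of the 8 genes stayed on its side of the threshold. The cebpa probe is not among those well above background on all arrays. Normexp moved the differences of pnpla2, plin2, cidea and cebpa to 1.39, -0.18, -0.08 and -0.30. Their probes were the dimmest among the 8 genes, and the part of dimness in these moves was not tested.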
